A study of Homo sapiens with 4 samples.

Results

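A set of 9 genes of the megakaryocyte and platelet lineage was followed in K562 cells that express the JAZF1-SUZ12 fusion. They were chosen by symbol from the 35606 genes of the count table: ITGA2B, ITGB3, GP1BB, GP9, GP6, PF4, THBS1, SELP and TUBB1. Of these 9 genes, 6 had counts in every library and entered the test, and 3 had 0 counts in all 4 libraries. K562 is an established line from a human chronic myeloid leukaemia that can take on erythroid or megakaryocytic features, and JAZF1-SUZ12 is a fusion known from endometrial stromal sarcoma that joins JAZF1 to SUZ12, a core subunit of Polycomb repressive complex 2. Poly(A)-selected, strand-specific RNA-seq was made from 2 libraries labelled JAZF1-SUZ12, called fusion libraries, and 2 labelled mock, all from K562. The vector, the time after its introduction and what the mock cells received are not given in the sources used here. Nothing in the labels says that the 2 libraries of a group came from separate cultures, so p-values measure the spread between these libraries, which may be technical.

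Megakaryocytes are large bone marrow cells that shed platelets, and they share a progenitor with red cells. A platelet carries receptors for vessel wall proteins: the integrin of ITGA2B and ITGB3 binds fibrinogen, the GPIb-IX-V complex binds von Willebrand factor, and GPVI binds collagen. Its alpha granules store proteins such as platelet factor 4 and thrombospondin-1, its microtubule coil is built from the beta-1 tubulin isotype, and P-selectin moves from the granules to the surface on activation.

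Libraries held between 17260936 and 24423028 estimated counts, and the labels were checked first on the fusion partners. JAZF1 was at 0.927 ± 0.481 CPM, counts scaled to a library total of 1000000, in mock and 31.6 ± 2.35 CPM in fusion libraries (n = 2 per group, SD), and SUZ12 was at 134 ± 3.28 and 272 ± 4.19 CPM. Gene counts do not tell the fusion transcript from those of its parent genes. The sample label gives uterus as the source, whereas the 12 erythroid markers examined were all detected. The erythroid markers summed to 9772 and 9989 CPM in mock, and to 11400 and 11570 CPM in the fusion libraries. Without HBG2, the other 11 summed to 6210 and 6260 CPM in mock and 7470 and 7590 CPM in JAZF1-SUZ12, which do not overlap. Among markers of other cells, the 10 monocyte and granulocyte genes summed to 34.5 and 37.6 CPM in mock and 26.2 and 26.8 CPM in JAZF1-SUZ12, with 7 of 10 above 3 counts in at least 1 library and S100A8 at 0. Without LYZ, the other 9 summed to 3.13 and 4.65 CPM in mock and 3.30 and 3.60 CPM in JAZF1-SUZ12, which overlap. The 10 endothelial genes summed to 12.1 and 17.8 CPM in mock and 19.1 and 19.8 CPM in JAZF1-SUZ12, with 7 of 10 above 3 counts and TEK at 0. Without PECAM1, the other 9 summed to 3.52 and 5.17 CPM in mock and 5.90 and 5.91 CPM in JAZF1-SUZ12, which do not overlap. The 8 stromal genes summed to between 10.1 and 10.9 CPM in mock and between 27.0 and 28.2 CPM in JAZF1-SUZ12, with 6 of 8 above 3 counts and LUM at 0. Without COL1A1, the other 7 summed to 5.72 and 3.66 CPM in mock and 5.56 and 6.84 CPM in JAZF1-SUZ12, which overlap. The sums of the whole lists did not overlap between groups, and their part in the results below was not tested. In bulk RNA, fewer cells of a type and less RNA per cell cannot be told apart.

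The 9 genes did not move as a block. THBS1 and GP6 fell, to 46.3% and 60.9% of their mean mock CPM, TUBB1 rose to 162%, and ITGA2B and ITGB3, at 103% and 102%, did not pass the test. GP1BB, at 89.9%, passed by a narrow margin. In the edgeR quasi-likelihood test with Benjamini-Hochberg adjustment over all 14750 genes tested, 4 of the 6 tested genes had an adjusted p under 0.05, of which 1 was higher and 3 were lower. The background was 24.7% of all tested genes called, with 13.3% higher and 11.4% lower. The median log2 fold change of the 6 genes was -0.087, and that of all genes tested was 0.0032. The 6 genes had at least 96 counts in every library, so each passed the filter on low counts in both groups. A change of 2-fold or more was seen in 8.03% of all tested genes and, of the 9, in THBS1 alone.

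**Figure D1:**
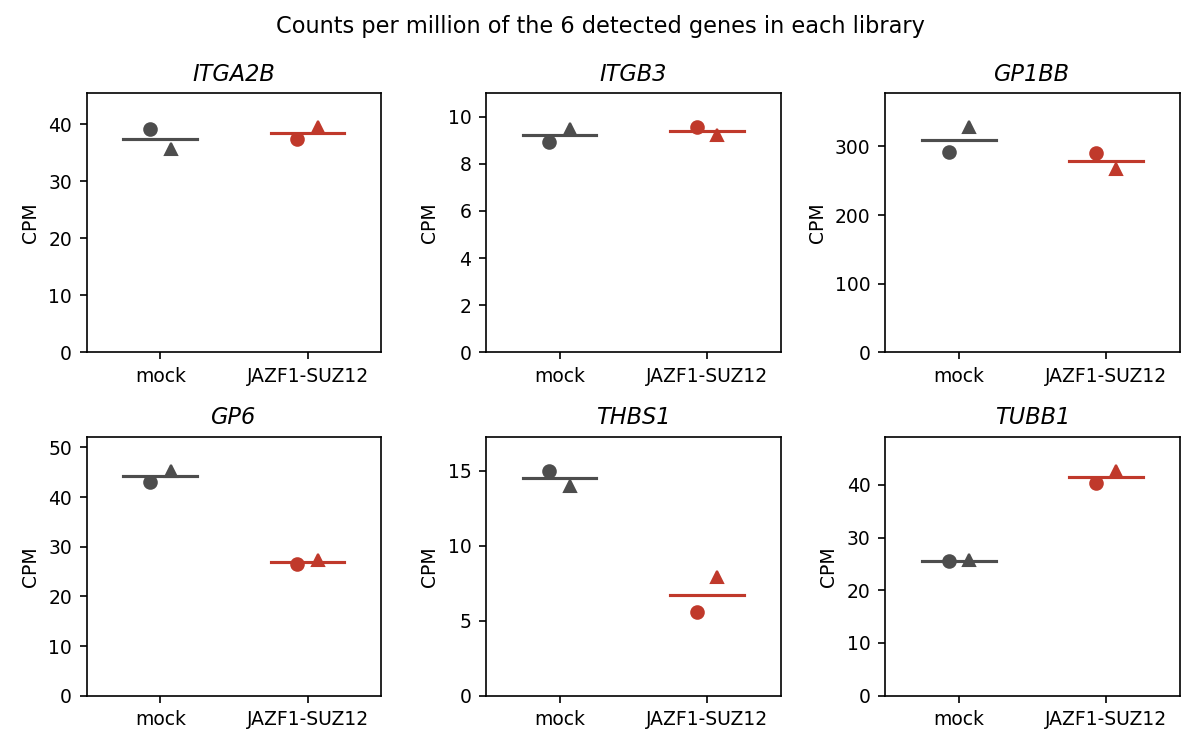
CPM (vertical axes, each from 0) of the 6 detected genes in each library, with mock in grey and JAZF1-SUZ12 in red, circles for replicate 1, triangles for replicate 2 and a line at the mean of 2 libraries. GP6 and THBS1 are lower and TUBB1 is higher in both JAZF1-SUZ12 libraries than in both mock libraries, whereas the groups overlap for ITGA2B and ITGB3.

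Among the receptor genes of these 9, GP6 changed most. GP6 encodes glycoprotein VI, the collagen receptor that signals through the Fc receptor gamma chain. GP6 (ENSG00000088053; GRCh38 chromosome 19, 55013705 to 55038264, minus strand) had 881 and 965 estimated counts in mock, against 457 and 669 in fusion libraries. As CPM these were 43.1 and 45.3 in mock and 26.5 and 27.4 in JAZF1-SUZ12, so both fusion libraries lay below both mock libraries. The gap between replicates was 0.072 in mock and 0.049 in JAZF1-SUZ12 on the log2 scale, against a gap of 0.715 between the group means. GP6 fell by 0.74 on the log2 scale (SE 0.074), or 1.66-fold (adjusted p from edgeR = 2.69e-06). The neighbouring gene on the same strand, RDH13, was at 67.0 ± 5.56 CPM in mock libraries, against 54.6 ± 2.41 CPM in fusion libraries (n = 2 per group, SD), and its log2 fold change was -0.31 (adjusted p from edgeR = 0.00301). Another annotation on that strand, AC011476.2, shares 270 of the 2703 exonic bases of GP6 and 825 of the 8594 of RDH13. AC011476.3, on the opposite strand, shares 44 bases with GP6 and 349 with RDH13. How reads were divided among these annotations was not tested. The stretch before the annotated start of GP6 is shown because GP6 is the receptor with the clearest change. It lies at chr19:55038265-55038514 on the minus strand (RefSeq promoter table, GRCh38.p14), with matches to 2 motifs of blood factors, GATA and ETS, in capitals:
GP6: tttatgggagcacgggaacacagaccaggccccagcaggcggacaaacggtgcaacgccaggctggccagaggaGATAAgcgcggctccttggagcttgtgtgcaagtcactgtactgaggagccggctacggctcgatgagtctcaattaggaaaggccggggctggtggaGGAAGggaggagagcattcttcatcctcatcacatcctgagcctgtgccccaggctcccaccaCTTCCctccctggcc

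THBS1 had the largest fold change of the 9 genes. Its product, thrombospondin-1, is a matrix glycoprotein that platelets release from alpha granules and that binds CD36 and CD47. THBS1 (ENSG00000137801; chromosome 15, 39581079 to 39599466, plus strand) had 307 and 299 counts in mock, against 96 and 193 in fusion libraries. Its CPM was 15.0 and 14.0 in mock and 5.56 and 7.90 in JAZF1-SUZ12. The groups did not overlap, but the JAZF1-SUZ12 libraries lay further apart, by 0.507 on the log2 scale, than the mock libraries, by 0.097. THBS1 fell by 1.11 on the log2 scale (SE 0.159), or 2.16-fold (adjusted p from edgeR = 0.000101). The fall was 0.92 on the log2 scale when JAZF1-SUZ12 replicate 1 was left out and 1.39 when replicate 2 was. Exons of FSIP1 on the opposite strand cover 448 of the 9158 exonic bases of THBS1, and no library had more than 15 counts for FSIP1. The promoter stretch of THBS1 is given for comparison with that of GP6, the other gene that fell clearly. It lies at chr15:39580829-39581078 on the plus strand, with its ETS match in capitals:
THBS1: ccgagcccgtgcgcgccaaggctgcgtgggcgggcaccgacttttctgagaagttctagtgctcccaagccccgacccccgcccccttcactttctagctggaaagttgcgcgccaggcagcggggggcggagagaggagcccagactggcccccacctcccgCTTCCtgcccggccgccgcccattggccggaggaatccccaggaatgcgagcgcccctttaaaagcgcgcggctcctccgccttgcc

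TUBB1 was the only one of the 9 genes that rose. It encodes beta-1 tubulin, the isotype of the megakaryocyte lineage that forms the marginal microtubule band of platelets. TUBB1 (ENSG00000101162; chromosome 20, 59019254 to 59026654, plus strand) had 521 and 547 counts in mock and 695 and 1042 in fusion libraries. In CPM, mock was at 25.5 and 25.7 and JAZF1-SUZ12 at 40.3 and 42.7, with no overlap. The log2 fold change was 0.68 (SE 0.075), or 1.60-fold higher (adjusted p from edgeR = 7.76e-06). ATP5F1E, a subunit gene of the mitochondrial ATP synthase, runs on the opposite strand and shares 1188 of the 3496 exonic bases of TUBB1. Use of strand in the counting is not stated. ATP5F1E was at 194 ± 8.13 CPM in mock libraries, against 194 ± 2.74 CPM in fusion libraries (n = 2 per group, SD), with a log2 fold change of -0.02 (adjusted p from edgeR = 0.851). For TUBB1 the printed stretch is the 75 bases before the GENCODE start, at chr20:59019179-59019253 on the plus strand, since the RefSeq start lies further inside the GENCODE transcript. None of the motifs searched has a match in it:
TUBB1: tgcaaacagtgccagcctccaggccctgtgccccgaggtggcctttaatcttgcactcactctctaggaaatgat

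The fibrinogen receptor did not change detectably at the level of its transcripts. ITGA2B (ENSG00000005961; chromosome 17, 44372180 to 44389505, minus strand), its alpha-IIb chain and a classic marker of the lineage, had 801 and 759 counts in mock and 647 and 965 in fusion libraries. These were 39.2 and 35.6 CPM in mock and 37.5 and 39.5 CPM in JAZF1-SUZ12, with overlapping groups. Its log2 fold change was 0.02 (95% interval -0.135 to 0.180; adjusted p from edgeR = 0.865). ITGB3 (ENSG00000259207; chromosome 17, 47253846 to 47311816, plus strand) encodes the beta-3 chain, which pairs with alpha-IIb and with the alpha-V chain. Its counts were 183 and 202 in mock and 165 and 225 in JAZF1-SUZ12, or 8.95 and 9.49 CPM against 9.56 and 9.21 CPM. The log2 fold change of ITGB3 was 0.0022 (95% interval -0.309 to 0.314; adjusted p from edgeR = 0.993). Another annotation on the same strand, AC068234.1, shares 2266 of the 4394 exonic bases of ITGB3 and had at most 13 counts in a library. Within each library, ITGB3 had 0.228 and 0.266 counts per ITGA2B count in mock and 0.255 and 0.233 in JAZF1-SUZ12. The balance of the 2 transcripts thus overlapped between groups.

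Transcripts of the GPIb-IX-V complex were detected only in part. GP1BB encodes the beta chain of GPIb, GP9 the glycoprotein IX chain, GP1BA the alpha chain that binds von Willebrand factor, and GP5 the glycoprotein V chain. GP1BB (ENSG00000203618; chromosome 22, 19722945 to 19724771, plus strand) had 5980 and 6986 counts in mock and 5022 and 6516 in fusion libraries. Its CPM was 292 and 328 in mock and 291 and 267 in JAZF1-SUZ12, so the higher JAZF1-SUZ12 library lay just under the lower mock library. The log2 fold change was -0.18 (SE 0.059; adjusted p from edgeR = 0.0383). That call was lost with DESeq2 (adjusted p = 0.331), without JAZF1-SUZ12 replicate 2 (adjusted p from edgeR = 0.194) and without mock replicate 2 (adjusted p from edgeR = 0.281). GP9 (ENSG00000169704; chromosome 3, 129060767 to 129062406, plus strand) had 0 counts in all 4 libraries. No library had more than 3 counts for GP5. GP1BA had 19 and 30 counts in mock and 49 and 51 in fusion libraries, with a log2 fold change of 1.04 that did not pass (adjusted p from edgeR = 0.0545). It passed without mock replicate 2 (adjusted p from edgeR = 0.0419).

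The count of GP1BB is uncertain because its exons are annotated more than once. SEPTIN5, a septin gene just upstream on the same strand, shares 1006 of the 1553 exonic bases of GP1BB, and the SEPTIN5-GP1BB readthrough shares all 1553. SEPTIN5 was at 419 ± 6.79 CPM in mock libraries, against 450 ± 9.15 CPM in fusion libraries, and the readthrough at 278 ± 1.42 and 269 ± 27.4 CPM (n = 2 per group, SD). Neither was called (adjusted p from edgeR = 0.172 and 0.439). GP1BB received 29.7% and 31.9% of the counts of the locus in mock and 28.5% and 27.4% in fusion libraries. With the 3 annotations summed, a choice made after seeing the data, the locus was at 985.1 and 1028 CPM in mock and 1023 and 972.6 CPM in JAZF1-SUZ12. The log2 fold change of the sum was -0.035 (95% interval -0.128 to 0.059; adjusted p from edgeR = 0.619). The call of GP1BB alone was thus not made for the locus as a whole, and how reads were divided between the annotations was not tested.

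**Figure D2:**
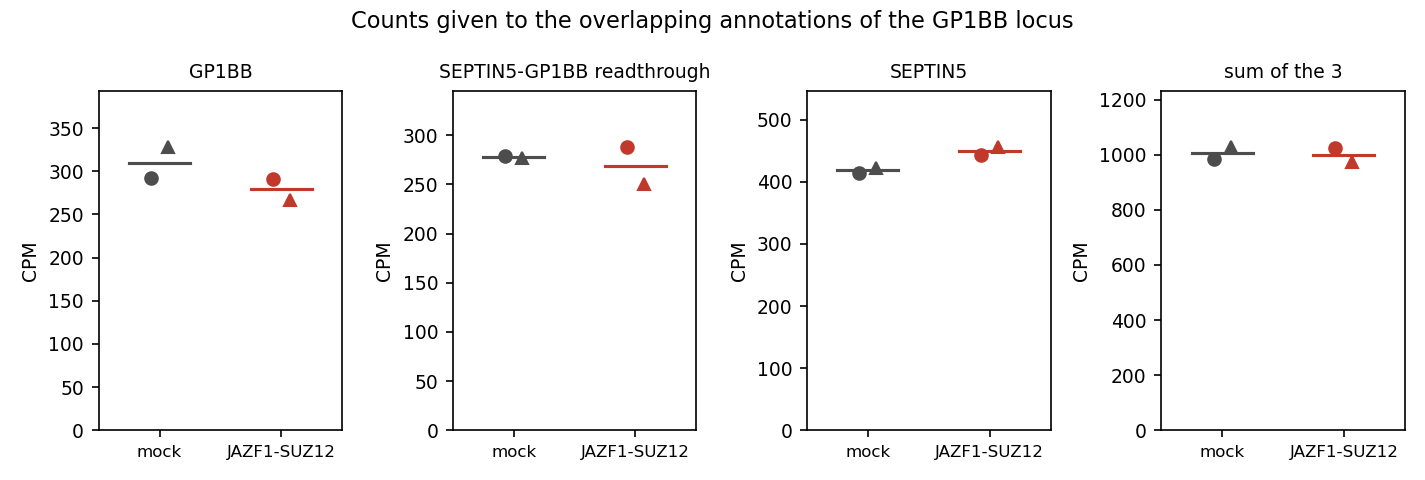
CPM (vertical axes, each from 0) given to GP1BB, to the SEPTIN5-GP1BB readthrough, to SEPTIN5 and to their sum, with mock in grey, JAZF1-SUZ12 in red, circles for replicate 1, triangles for replicate 2 and a line at the mean. The sum lies between 972.6 and 1028 CPM in all 4 libraries, with overlapping groups.

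The granule genes PF4 and SELP were not detected. PF4 (ENSG00000163737; chromosome 4, 73981077 to 73982124, minus strand), the platelet factor 4 chemokine of alpha granules, had 0 counts in all 4 libraries. SELP (ENSG00000174175; chromosome 1, 169588849 to 169630193, minus strand), which encodes P-selectin, likewise had 0 counts in all 4. A count of 0 allows up to 3 counts, or between 0.123 and 0.174 CPM depending on the depth of the library, and this limit covers counting error only. The neighbours of PF4 in the platelet chemokine cluster, PPBP and PF4V1, also had 0 counts throughout. FCER1G, the signalling partner of GPVI, and GP5 had at most 3 counts in any library. CD36, a receptor of thrombospondin-1, had between 5 and 14 counts. With GP9, 3 of the 9 genes thus gave no counts in either group.

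The promoter of GP9 is shown beside those of the detected genes because it holds matches to 3 of the 4 motifs although the gene had 0 counts. It lies at chr3:129060529-129060766 on the plus strand, up to the base before the GENCODE start, with its GATA, ETS and RUNX matches in capitals and 2 ETS matches that overlap by 1 base:
GP9: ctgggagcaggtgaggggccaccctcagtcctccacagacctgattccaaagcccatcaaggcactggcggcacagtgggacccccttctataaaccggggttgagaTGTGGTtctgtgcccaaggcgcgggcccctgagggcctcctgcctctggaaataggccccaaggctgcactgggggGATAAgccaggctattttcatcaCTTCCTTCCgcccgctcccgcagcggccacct

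Motifs were searched on both strands in RefSeq windows of 300 bases, from 250 before to 50 after a start, and 7 of the 9 genes had a window. ITGB3 and PF4 had none. The letters GATAA, for GATA factors, were present in 4 of the 7 windows (SELP, GP9, GP6 and GP1BB) and in 22.7% of all 35116 windows. GGAAG, for ETS factors (CTTCC on the other strand), was present in all 7 and in 71.9% of all windows. TGTGGT, for RUNX factors, was present in SELP, GP9, TUBB1 and GP1BB and in 13.1% of all windows, and TGAGTCA, for AP-1 and NF-E2, in none of the 7 and in 4.95% of all. In GP6 the GATA match begins 176 bases before the start, and in GP9 67 bases before it. The windows differed in CpG content: GP1BB and THBS1 held 33 and 29 CpG, GP6 and GP9 held 12 and 8, and TUBB1, ITGA2B and SELP held 3, 2 and 1, against a median of 14 over all windows. The GP1BB window overlaps annotated exons of its locus and is not printed. A match is a run of letters and not a bound site.

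Levels can be compared between the 9 genes only per length, so CPM was divided by the length of the longest GENCODE coding transcript in kilobases. In mock the order of mean level was GP1BB at 200 ± 16.2, GP6 at 19.5 ± 0.692, ITGA2B at 11.2 ± 0.751, TUBB1 at 7.32 ± 0.0407, ITGB3 at 2.31 ± 0.0945 and THBS1 at 1.87 ± 0.0888 CPM per kilobase (n = 2 per group, SD). Neighbours in that order did not overlap between libraries. In JAZF1-SUZ12 libraries GP1BB was at 180 ± 11.0, while GP6 at 11.9 ± 0.286, TUBB1 at 11.9 ± 0.485 and ITGA2B at 11.6 ± 0.430 CPM per kilobase overlapped and had no order beyond their spread. ITGB3 was at 2.35 ± 0.0613 and THBS1 at 0.866 ± 0.213 CPM per kilobase. GP6, ITGA2B and TUBB1 were thus separate in mock and overlapping in the fusion libraries, on this choice of length. The level of GP1BB carries the uncertainty of its locus.

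**Figure D3:**
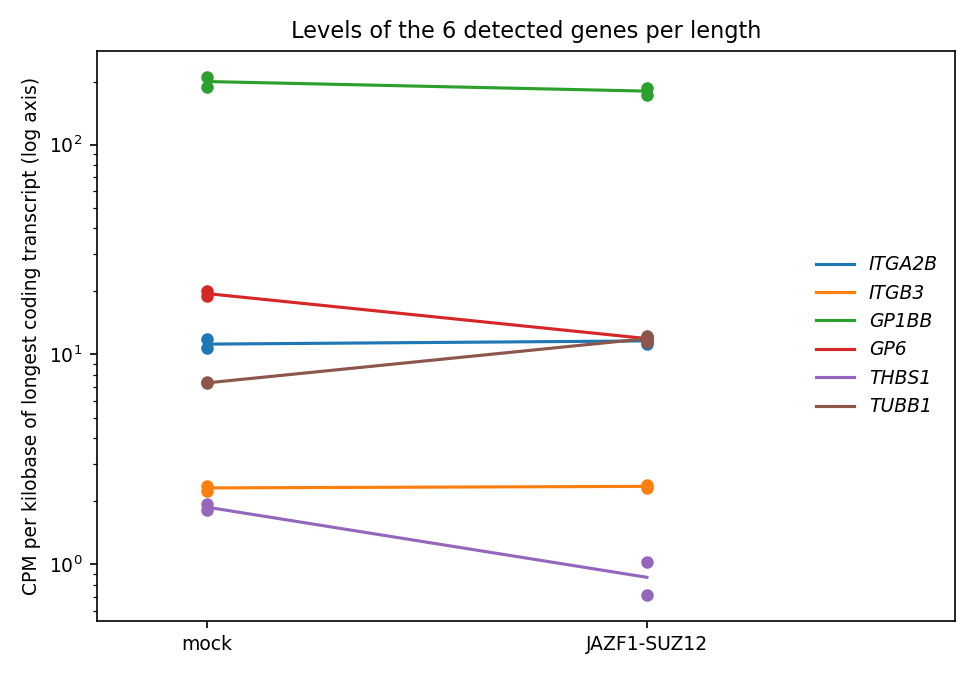
CPM per kilobase of the longest coding transcript (log axis) of the 6 detected genes in the mock and JAZF1-SUZ12 groups, with points for libraries and lines joining group means. GP6 comes down from 19.5 and TUBB1 goes up from 7.32 to means of 11.9 CPM per kilobase beside ITGA2B at 11.6 in the fusion libraries.

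Ratios of counts within a library do not depend on how libraries are scaled. TUBB1 had 0.591 and 0.567 counts per GP6 count in mock and 1.52 and 1.56 in the fusion libraries, a ratio of counts and not of levels per length. GP6 had 1.10 and 1.27 counts per ITGA2B count in mock and 0.706 and 0.693 in JAZF1-SUZ12. THBS1 had 0.383 and 0.394 counts per ITGA2B count in mock and 0.148 and 0.200 in JAZF1-SUZ12. TUBB1 had 0.650 and 0.721 counts per ITGA2B count in mock and 1.07 and 1.08 in JAZF1-SUZ12. For these 4 ratios the groups did not overlap. Each ratio includes GP6, THBS1 or TUBB1, which were already called, so this is no further support. With 2 libraries against 2, an exact two-sided permutation p cannot fall below 0.333, so no p is given.

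The authors' deposited table of the same comparison lists the 6 detected genes and calls 3 of them at an adjusted p under 0.05, against 8.50% of all genes with an adjusted p in it. In the authors' deposited table, THBS1 had a log2 fold change of -1.65 (SE 0.296; adjusted p = 2.37e-06), a larger fall than from the counts here. GP6 was at -0.78 (adjusted p = 6.10e-06) and TUBB1 at 0.66 (adjusted p = 0.000416) in the authors' deposited table. GP1BB, ITGB3 and ITGA2B were not called there, with adjusted p of 0.110, 0.922 and 0.928 in the authors' deposited table. ITGA2B was at -0.05 and ITGB3 at 0.10 in the authors' deposited table. It comes from the same libraries and is no independent support.

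**Figure D4:**
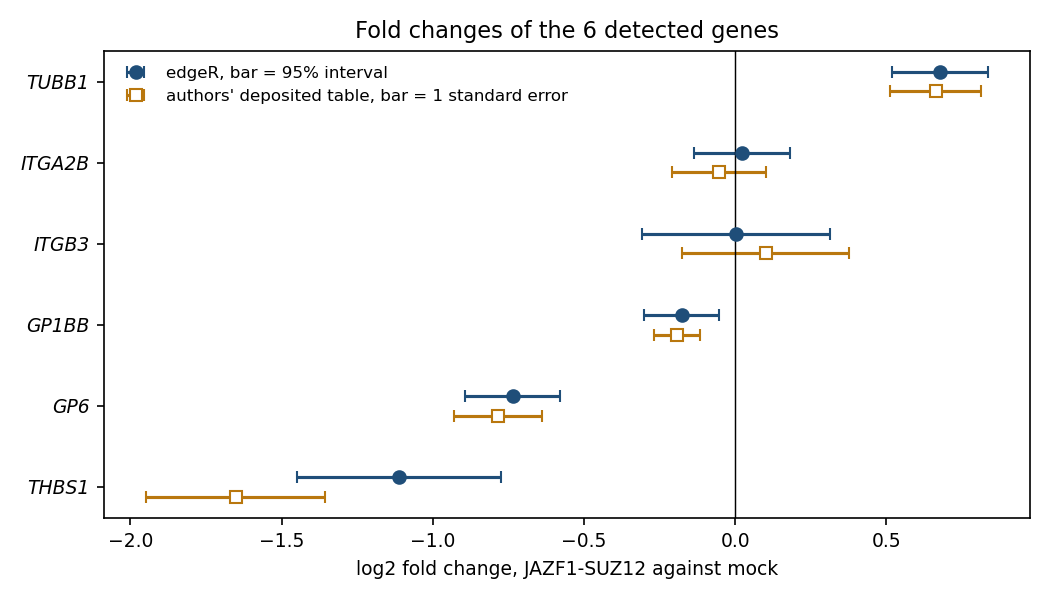
Change from mock to JAZF1-SUZ12 as log2 fold change (horizontal axis) for the 6 detected genes from edgeR (filled circles, bars of 95% interval) and from the authors' deposited table (open squares, bars of 1 standard error). Both give falls for THBS1 and GP6 and a rise for TUBB1, and THBS1 is at -1.11 from edgeR and -1.65 in the authors' deposited table.

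Beyond the 9 genes, 114 other genes of the lineage were grouped by role, and 99 had enough counts to be tested. The filter asks for at least 0.479 CPM in 2 libraries, and 94 of the 99 met it in both groups. Of these 94, 12 rose and 20 fell (adjusted p from edgeR under 0.05), or 34.0% called, against 24.7% of the 13383 genes of the whole table that met it in both groups, 12.2% higher and 12.5% lower. Their median log2 fold change was -0.060 and the median size of change 0.151, against -0.012 and 0.154 for those 13383. The role groups below hold between 9 and 19 of the 94, too few for a count to be a result about a role. CD9 and SPARC rose 2-fold or more, and none of the 94 fell by as much. Another 3 genes, ITGA2, SERPINE2 and FLI1, met the filter in both fusion libraries but not in both mock libraries. They passed the filter through the fusion group, so their values are given without a test. The remaining 2 met it in 1 library of each group and were not called. The authors' deposited table lists 108 of the 114 genes, some without an adjusted p, and called 13 of them, 6 higher and 7 lower. Of all genes with an adjusted p in it, 8.50% were called. Among the genes named below, it did not call F2RL3, TBXA2R, P2RX1, PDGFA, PDGFB, LYST, ABCC4 or VPS33B. Nor did it call HPS5, AP3D1, FERMT3, GSN, LCP2 or PLCG2.

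Of 20 other surface receptors, 12 met the filter in both groups, 1 rose and 3 fell, or 33.3% called (all genes: 24.7%). CD9, a tetraspanin of the platelet membrane, rose from 2.92 ± 0.322 to 8.59 ± 0.186 CPM (n = 2 per group, SD; adjusted p from edgeR = 3.48e-05). ITGA2, the alpha-2 chain of the other platelet collagen receptor, had 9 and 4 counts in mock and 23 and 25 in JAZF1-SUZ12. F2RL3, a thrombin receptor, fell from 38.5 ± 0.299 to 28.5 ± 0.848 CPM and TBXA2R, the thromboxane receptor, from 39.7 ± 1.26 to 32.9 ± 0.555 CPM (n = 2 per group, SD; adjusted p from edgeR = 0.000354 and 0.00719). P2RX1, an ATP-gated channel, fell by 0.23 on the log2 scale (adjusted p from edgeR = 0.0432). Its call was lost with DESeq2 (adjusted p = 0.216) and when any 1 library was left out (edgeR-adjusted p between 0.0814 and 0.121).

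Among 16 other granule cargo genes, 9 met the filter in both groups, 2 rose and 1 fell, or 33.3% called (all genes: 24.7%). THBS1, itself a cargo gene, fell. SPARC, a matrix protein stored in alpha granules, rose from 14.1 ± 0.544 to 35.5 ± 0.167 CPM (n = 2 per group, SD), a log2 fold change of 1.30 (adjusted p from edgeR = 5.50e-08). Stromal cells also express SPARC. Of the 8 stromal markers, COL1A1 had mean CPM values of 5.79 ± 0.849 (mock) and 21.4 ± 0.0731 (fusion; n = 2 per group, SD), and the sum of the other 7 overlapped between groups. Among those 7, PDGFRB had 19 and 4 counts in mock and 41 and 32 in fusion libraries. It is given without a test, since mock replicate 2 was under the filter. The other 2 that were tested, COL1A2 and DCN, were not called. Whether these markers bear on SPARC was not tested. SERPINE2, a protease inhibitor, had 11 and 7 counts in mock and 60 and 76 in JAZF1-SUZ12, or 0.433 ± 0.148 and 3.29 ± 0.258 CPM (n = 2 per group, SD). The genes of the platelet-derived growth factor chains moved in opposite directions: PDGFA rose by 0.44 and PDGFB fell by 0.36 on the log2 scale (adjusted p from edgeR = 0.00257 and 0.00789). VWF, von Willebrand factor, was not tested. It had 0 counts in both mock libraries and 7 and 10 in fusion libraries. VWF is also an endothelial marker.

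Of 19 granule assembly genes, 18 met the filter in both groups, 4 rose and 2 fell, or 33.3% called (all genes: 24.7%). LYST and ABCC4, a regulator of lysosome-related organelles and a nucleotide transporter of dense granules, rose by 0.76 and 0.22 on the log2 scale (adjusted p from edgeR = 0.00457 and 0.00609). VPS33B, needed for alpha granules, rose by 0.41 (adjusted p from edgeR = 0.00454, and 0.104 without JAZF1-SUZ12 replicate 2). HPS5 and AP3D1, from complexes that sort dense granule proteins, fell by 0.35 and 0.16 on the log2 scale (adjusted p from edgeR = 0.0107 and 0.0229). HPS5 was at -0.04 in the authors' deposited table (adjusted p = 0.956). Without mock replicate 1 neither passed (adjusted p from edgeR = 0.150 and 0.0909), and AP3D1 also did not pass without JAZF1-SUZ12 replicate 2 (adjusted p = 0.113).

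Of 19 other cytoskeletal and integrin-activating genes, 18 met the filter in both groups, 1 rose and 5 fell, or 33.3% called (all genes: 24.7%). TUBB1 itself rose. DIAPH1, a formin that regulates actin and microtubules, fell from 626 ± 1.81 to 464 ± 6.71 CPM (n = 2 per group, SD), or 1.37-fold (adjusted p from edgeR = 9.99e-07). FERMT3, which encodes the integrin activator kindlin-3, and PFN1, profilin, fell by 0.18 and 0.16 on the log2 scale (adjusted p from edgeR = 0.00919 and 0.0139). GSN, gelsolin, rose by 0.34 (adjusted p from edgeR = 0.00499). Without JAZF1-SUZ12 replicate 2, FERMT3, PFN1 and GSN did not pass (adjusted p from edgeR = 0.0524, 0.0834 and 0.0700).

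Of 19 platelet enzymes and signalling genes, 18 met the filter in both groups, 2 rose and 4 fell, or 33.3% called (all genes: 24.7%). Several act below GPVI, where Src family kinases such as LYN, the kinase SYK and the adaptor LCP2 lead to the phospholipase PLCG2. LCP2 fell from 21.3 ± 0.841 to 13.7 ± 1.06 CPM and SYK from 73.0 ± 0.467 to 58.9 ± 1.60 CPM (n = 2 per group, SD; adjusted p from edgeR = 0.000337 and 0.000836). PLCG2 went the other way, from 20.1 ± 0.613 to 33.9 ± 4.18 CPM, and was 1.67-fold higher (n = 2 per group, SD; adjusted p from edgeR = 2.72e-05). LYN fell by 0.16 on the log2 scale (adjusted p from edgeR = 0.0266), a call lost with DESeq2 (adjusted p = 0.0579) and without either JAZF1-SUZ12 library or mock replicate 1 (edgeR-adjusted p between 0.0511 and 0.118). PTGS1, cyclooxygenase-1, rose by 0.43 (adjusted p from edgeR = 0.000162). Myeloid cells also express SYK, LCP2 and LYN, and LYZ fell from 32.1 ± 3.23 to 23.0 ± 0.638 CPM (n = 2 per group, SD; adjusted p from edgeR = 0.000692). Of the other 9 monocyte and granulocyte markers 3 were tested and not called, and their sum overlapped between groups. Whether these markers bear on SYK, LCP2 and LYN was not tested.

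Of 21 transcription factors of the lineage, 19 met the filter in both groups, 2 rose and 5 fell, or 36.8% called (all genes: 24.7%). GATA1, the central factor of both the erythroid and megakaryocytic branches, was at 259 ± 5.35 CPM in mock libraries, against 271 ± 16.4 CPM in fusion libraries (n = 2 per group, SD; adjusted p from edgeR = 0.562). RUNX1 fell from 103 ± 6.37 to 82.7 ± 4.67 CPM, GFI1B from 124 ± 2.72 to 99.9 ± 0.191 CPM and LMO2 from 81.2 ± 0.988 to 66.9 ± 4.10 CPM (n = 2 per group, SD; adjusted p from edgeR = 0.000760, 0.000271 and 0.00219). NFE2, a factor known to control TUBB1, rose by 0.21 (adjusted p from edgeR = 0.00340, and 0.0625 without mock replicate 1). FLI1, an ETS factor of megakaryocytes, had 1 count in each mock library and 11 and 21 in fusion libraries. It passed the filter through the fusion libraries only, so these counts are given without a test.

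**Figure D5:**
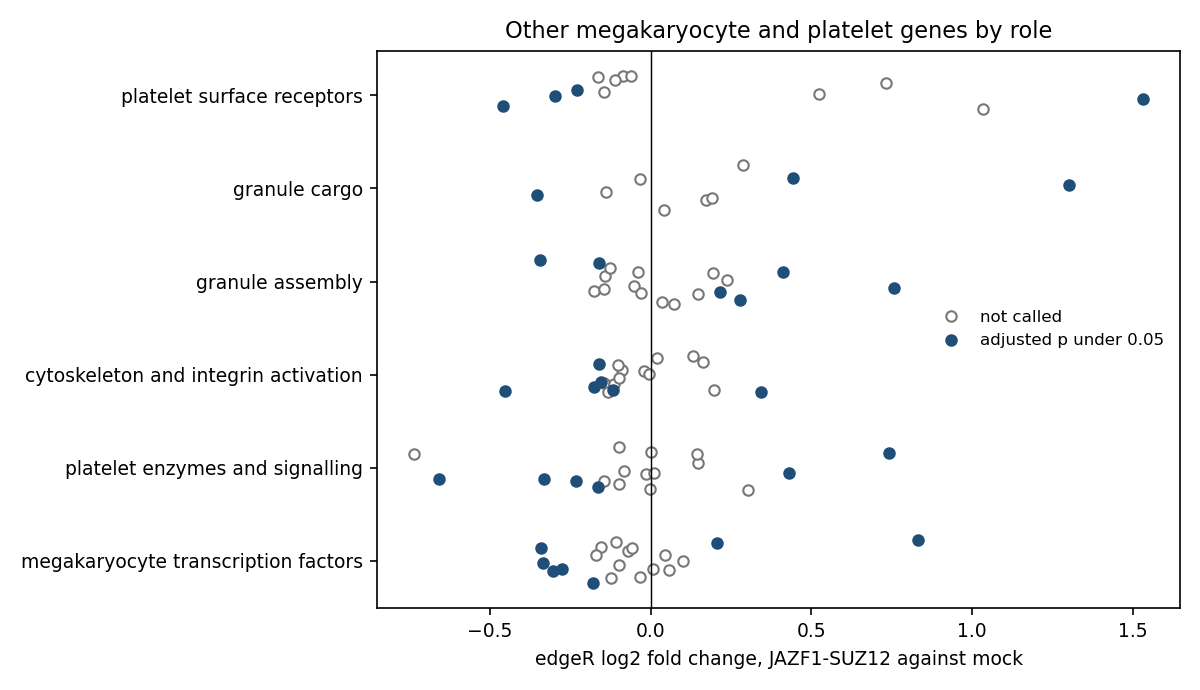
Change from mock to JAZF1-SUZ12 as edgeR log2 fold change (horizontal axis) for the 94 genes of the 6 role groups that met the filter on low counts in both groups, with filled points for an adjusted p under 0.05, open points for the others, and vertical scatter only for legibility. Filled points lie on both sides of 0 in every role group, and the points furthest to the right are CD9 among the receptors and SPARC among the cargo genes.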

How the data were processed

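Gene-level estimated counts, deposited by the authors as raw counts and not scaled for depth, were used from 4 libraries, whose precision is limited by n = 2 per group. Per the submitters' processing notes the tools were fastp 0.20.1, FastQC 0.11.7, MultiQC 1.5, kallisto 0.46.2 and DESeq2 1.30.1 on hg38, and the annotation release is not given in the sources used here. Counts were rounded to whole numbers because the planned test takes counts. In the authors' deposited table, the mean signal per gene is depth-normalized, the log2 fold change and its p-value have the form DESeq2 writes, and the score is the authors' test statistic, per the file headers.

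Genes were filtered with filterByExpr, scaled with TMM and tested with edgeR 4.0.16 (R 4.3.3) by the quasi-likelihood test across all genes, two-sided, with group as covariate. Each standard error is the size of the log2 fold change over the root of its F statistic. CPM is relative to total counts. The floor for a gene was set at 3 counts per library. Counts were simulated for 14750 genes with the same preset spread for every gene, and 14514 were tested. Of 200 genes changed 2-fold, 179 were recovered, with 15 false calls. That spread was not estimated from these libraries, so these numbers do not give the error rate of the comparison. Positions and overlaps are from GENCODE 29 on GRCh38, in which 35410 of 35606 gene IDs matched. Members and gene lists were chosen with earlier results of these data known. The text names the 9 members, their direct partners, and up to 3 called genes of smallest p per role and direction, with VWF, RDH13, LYZ and COL1A1 added after their values were seen, and some genes this rule names are not reported here. Role counts are over genes that met the filter in both groups, a choice made after seeing the data. Alternatives were other scalings, DESeq2 1.42.0, limma-voom (limma 3.58.1), other filters, a replicate block, a stricter threshold and leaving out each library.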

Additional observations from a re-analysis of the deposited data

How the results depend on the processing

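GP6, THBS1 and TUBB1 kept their direction and an adjusted p under 0.05 in each of 12 alternatives. Over the 4 fits that left out 1 library, where a lone library is assumed to vary like the other group, the log2 fold change ranged from -0.78 to -0.71 for GP6, from -1.39 to -0.92 for THBS1 and from 0.64 to 0.70 for TUBB1. GP1BB was negative throughout but lost its call in 6 of 13 alternatives, among them total counts only (adjusted p from edgeR = 0.0517). The 6 include the stricter threshold, which left its fit unchanged. They also include the summed locus, a different quantity chosen after seeing the data. ITGA2B and ITGB3 were not called in any fit and their sign was not stable: ITGA2B ranged from -0.055 to 0.082 and ITGB3 from -0.049 to 0.043 when 1 library was left out, and ITGB3 was at -0.0032 with limma-voom and -0.0068 with no filter. The count of members called was 3 or 4 in every alternative. The wider list of 35 called genes, 3 of which passed the filter through the fusion group, gave 23 at an adjusted p under 0.01, which lowers it by construction. Otherwise, with all 4 libraries, it gave between 29 with DESeq2 and 41 with no filter. The calls over all genes moved too, with 2407 of 14750 with DESeq2 and 4065 of 22778 with no filter. Same-numbered libraries showed little shared deviation (r = 0.0025 across 14750 genes, which are not independent). Over the 11826 genes with a mean of at least 50 counts, r was 0.028. With 2 libraries per group these values cannot exclude a shared batch, and the labels give only a number. With the replicate number as a block, 4 members and 40 genes of the wider list were called, beside 4061 of all 14750 genes tested. Depth limits PF4, GP9 and SELP, where 0 counts allow up to 0.174 CPM in the shallowest library.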

Other observations

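Of 11 integrin subunits in a list that includes ITGA2B and ITGB3, 9 met the filter on low counts in both groups. Of these, 2 rose and 0 fell, or 22.2% called, near the 24.7% of all genes that met it, so the count is no result about the group. The 2 were ITGA5, the fibronectin receptor chain, from 151 ± 5.32 to 178 ± 7.51 CPM, and ITGB7, a lymphocyte integrin chain, from 2.39 ± 0.405 to 5.30 ± 0.205 CPM (n = 2 per group, SD; adjusted p from edgeR = 0.00623 and 0.00278). Without mock replicate 1, ITGA5 did not pass (adjusted p = 0.0845). ITGAV, the alpha-V partner of beta-3, had a log2 fold change of 0.14 (adjusted p from edgeR = 0.134). ITGA5, ITGB7 and THBS3 were named after their values were seen.

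Of the other thrombospondins, THBS3 rose by 0.48 on the log2 scale (adjusted p from edgeR = 0.0443), a call lost with DESeq2 (adjusted p = 0.174), without JAZF1-SUZ12 replicate 2 (adjusted p = 0.242) and without mock replicate 1 (adjusted p = 0.234). CD47, a receptor of thrombospondin-1, fell by 0.19 on the log2 scale (adjusted p from edgeR = 0.0362), a call lost with DESeq2 (adjusted p = 0.155) and without either JAZF1-SUZ12 library or mock replicate 1 (edgeR-adjusted p between 0.0540 and 0.162). SELPLG, the ligand of P-selectin, had 58 and 66 counts in mock and 26 and 52 in JAZF1-SUZ12 libraries (adjusted p from edgeR = 0.110), while SELP itself had 0 throughout.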
